A study of Mus musculus with 11 samples.

Results

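The mature forms of 4 mouse microRNA (miRNA) hairpins, miR-221, miR-222, miR-146a and miR-146b, were followed in cultured spermatogonial progenitor cells (SPCs) with and without knockdown of Mov10, which encodes an RNA helicase. All forms listed in both small RNA tables under these 4 names were taken, whichever hairpin arm (5p or 3p) they come from, which gave 8 of the 1096 listed miRNAs. The SPCs were Thy1-positive cells of mouse pups, with the strain labelled C57BL/6 and the age postnatal day 6, cultured long-term over STO mouse embryo fibroblasts, a feeder layer whose division had been blocked. The methods instead name the donor strain as B6;129S-Gt(Rosa)26Sor/J and give an age of 6 to 8 days. Control SPCs carried the empty lentiviral shRNA vector (genotype label Mov10 Vector), and knockdown SPCs carried a Mov10 shRNA vector (genotype label Mov10 knockdown). The methods name shMov10-832 for the RNA-seq libraries, and the genotype label of the small RNA library does not name the shRNA. Each group has 1 small RNA library. The methods mention triplicate samples for the small RNA libraries, and whether these were pooled into the library of each group is not given in the sources used here. There is thus no replicate error. All intervals and p-values below cover at most counting error, and they compare the 2 libraries rather than the 2 conditions. They treat reads as independent, which reads without molecular identifiers need not be, so they can be too narrow even for counting. Small RNA libraries do not measure Mov10 mRNA, and the knockdown itself was not checked here. In a bulk library, fewer cells of a type and less of an RNA per cell cannot be told apart.

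A miRNA guides Argonaute proteins to messenger RNAs that pair with its seed, the bases near its 5′ end, and thereby lowers their translation or stability. MiR-221 and miR-222 are transcribed from neighbouring hairpins and are known to repress Kit, the receptor tyrosine kinase that appears when spermatogonia commit to differentiation. In undifferentiated mouse spermatogonia they have been described as keeping the cells in that state, and miR-146 has been described as restraining the response to retinoic acid through Med1, a coactivator of nuclear receptors. In immune cells miR-146a is best known as a brake on NF-κB signalling through Traf6 and Irak1.

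The 8 forms fall into 2 seed groups on the arm that carries most reads, and these sequences are shown because the seed decides which reads are summed into a group. Each is written 5′ to 3′ from RefSeq, with bases 2 to 8, the seed, in capitals.
miR-221-3p: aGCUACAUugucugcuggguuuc
miR-222-3p: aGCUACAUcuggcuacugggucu
miR-146a-5p: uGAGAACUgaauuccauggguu
miR-146b-5p: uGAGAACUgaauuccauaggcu
MiR-221-3p and miR-222-3p are identical over their first 8 bases and carry the same base at 11 of 23 positions. MiR-146a-5p and miR-146b-5p differ by 2 substitutions, G18A and U21C, counted from 1 at the 5′ end with the base of miR-146a-5p first. Reads were mapped without mismatch, so these 2 bases near the 3′ end are all that assigns a read to miR-146a-5p or to miR-146b-5p. RefSeq holds 1 further miRNA with the seed of miR-221-3p, miR-1928, which is not among the 1096 listed miRNAs and so has no counts here.

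In GRCm38.p6, Mir221 lies on the minus strand of chromosome X from 19146294 to 19146388 and Mir222 from 19146893 to 19146971. The gap between these hairpins is 504 bp. Neither overlaps another annotated gene, and the nearest one, Gm14636, is 10010 bp from Mir222. Mir146, the hairpin of miR-146a, lies on the minus strand of chromosome 11 from 43374397 to 43374461, also outside other genes, with Gm12148 nearest at 11021 bp. Mir146b lies on the plus strand of chromosome 19 from 46342762 to 46342870, in intron 1 of the Mfsd13a transcript Mfsd13a-202 in GENCODE, and in an intron of the noncoding gene Gm36493 in RefSeq. The hairpins of miR-146a and miR-146b are thus separate loci, whereas those of miR-221 and miR-222 are neighbours.

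In control SPCs the most abundant form was miR-146b-5p, followed by miR-221-3p, miR-146a-5p, miR-222-3p, miR-221-5p and miR-222-5p. The order was the same in knockdown SPCs, and the 95% Poisson intervals of neighbours among these 6 did not overlap in either library. Only the intervals of the last pair, miR-146b-3p and miR-146a-3p, overlapped. Together the 8 forms held 122782 reads in the control, which is 1.28% of all miRNA reads (95% Wilson interval 1.27 to 1.28%). In the knockdown they held 28270 reads, or 1.01% (1.00 to 1.02%). The control library was the deeper one, with 9628835 miRNA reads against 2794593. Levels are given as the deposited TPM, reads per 1000000 of a total that differs by library, with no length correction, and comparisons of levels between miRNAs are therefore comparisons of reads. The value of 1 read was 0.0951 TPM for the control and 0.313 TPM for the knockdown.

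**Figure D1:**
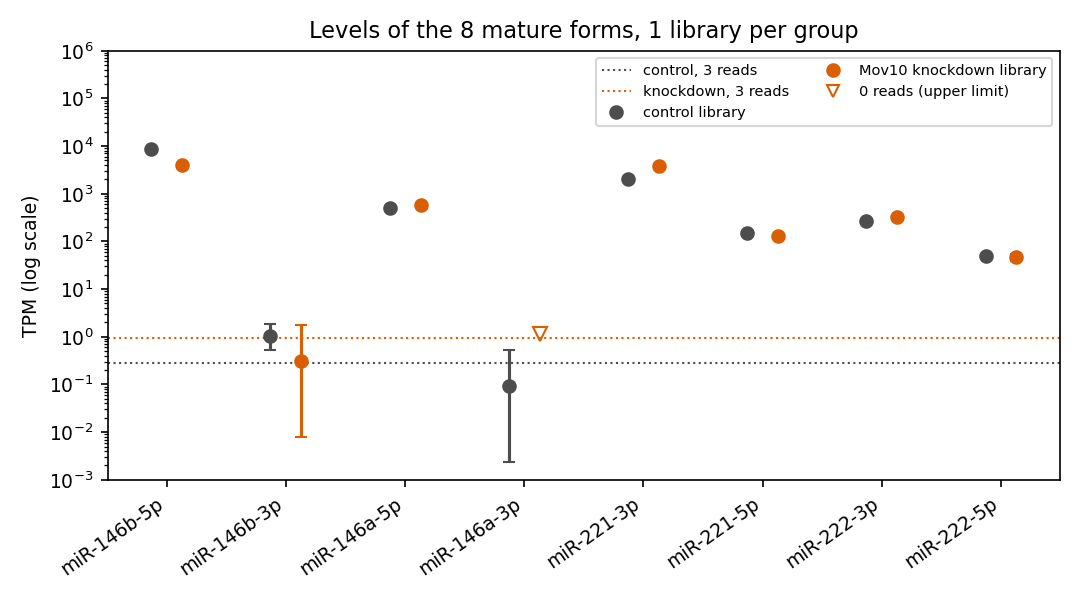
TPM of the 8 mature forms (log axis) in the control and the Mov10 knockdown library, 1 library per group. Bars are 95% Poisson intervals for counting error, dotted lines mark the level of 3 reads (0.285 TPM in the control, 0.939 TPM in the knockdown), and the open triangle is the upper limit for a form with 0 reads. MiR-146b-5p stands lower in the knockdown (8669 against 4029 TPM) and miR-221-3p higher (2037 against 3758 TPM), the latter only in values scaled to the library total.

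MiR-146b-5p had 91179 reads in control SPCs and 12869 in knockdown SPCs. Its level was 8669 TPM (95% Poisson interval 8612 to 8725) in the control and 4029 TPM (3959 to 4099) in the knockdown. The level was 2.15-fold lower in the knockdown library (95% exact interval 2.11 to 2.19), a log2 fold change of -1.11. The exact binomial p-value was too small for double precision. By level it went from rank 26 to rank 37 of the 1096 miRNAs. It made up 0.947% of the miRNA reads of the control and 0.460% of those of the knockdown.

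MiR-221-3p went the other way. It had 21422 reads in control SPCs and 12003 in knockdown SPCs, which corresponds to 2037 TPM (2009 to 2064) and 3758 TPM (3691 to 3825). In TPM it was 1.84-fold higher in the knockdown library (1.804 to 1.887), a log2 fold change of 0.88, whereas its unscaled reads were lower, by -0.84 on the log2 scale. The exact binomial p-value was again too small for double precision. It moved from rank 58 to rank 38, directly after miR-146b-5p at rank 37.

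The second form of each seed group changed less. MiR-146a-5p had 5267 and 1825 reads, or 501 TPM (487 to 514) in the control and 571 TPM (545 to 598) in the knockdown. The log2 fold change was 0.19 (95% interval 0.11 to 0.27, adjusted p = 7.2e-06, exact binomial test with Benjamini-Hochberg adjustment). MiR-222-3p had 2835 and 1016 reads, or 270 TPM and 318 TPM. Its log2 fold change was 0.24 (0.13 to 0.34, adjusted p = 3.5e-05, exact binomial test). Both were thus slightly higher in TPM in the knockdown library, by less than 1.5-fold, and both had lower unscaled reads, by -1.53 for miR-146a-5p and -1.48 for miR-222-3p on the log2 scale.

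The 5p arms of miR-221 and miR-222, the usual passenger strands, showed small differences. MiR-221-5p had 1553 control and 407 knockdown reads, 148 TPM (140 to 155) against 127 TPM (115 to 140). Its log2 fold change of -0.21 passed the exact binomial test (adjusted p = 0.028), but under median ratio scaling it turned to 0.039. MiR-222-5p had 514 and 149 reads, 48.9 TPM (44.7 to 53.3) against 46.6 TPM (39.5 to 54.8). With a log2 fold change of -0.07 (-0.34 to 0.20, adjusted p = 0.97, exact binomial test), no difference was detectable at this depth.

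The 3p arms of miR-146a and miR-146b were at or near the detection floor of 3 reads. MiR-146b-3p had 11 control reads and 1 knockdown read, 1.05 TPM and 0.313 TPM, and the interval of the ratio, 0.00695 to 2.06, held both directions. MiR-146a-3p had 1 control read and 0 knockdown reads, so no fold is given.

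Of the 8 forms, 6 exceeded 1.5 TPM in at least 1 library, the minimum used by the study. Of these, 1 was reduced over 1.5-fold in the knockdown, miR-146b-5p, against 41.7% of all 607 miRNAs over that minimum. Another 1, miR-221-3p, was raised over 1.5-fold, against 16.0% of all 607. By the exact binomial test, miR-146b-5p and miR-221-5p were lower, against 21.4% of the 1096 miRNAs tested. MiR-221-3p, miR-222-3p and miR-146a-5p were higher, against 10.7%. The 1096 include miRNAs at or below 1.5 TPM, which hold few reads and are seldom called. Both shares therefore understate the background for miRNAs over 1.5 TPM, here and for the lists below. The direction of miR-221-3p, miR-222-3p and miR-146a-5p holds for TPM and for the other scalings to a library total or factor, and turns without scaling.

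The 607 miRNAs had a median log2 fold change of -0.37, with an interquartile range of -1.03 to 0.32. Measured from that median, miR-221-3p was 1.25 higher, miR-222-3p 0.60 higher, miR-146a-5p 0.56 higher and miR-146b-5p 0.74 lower (-0.74) on the log2 scale. Among the 607, 55 miRNAs had a higher log2 fold change than miR-221-3p, and 133 had a lower one than miR-146b-5p. Of the 208 miRNAs with more than 100 TPM in the control, 12 had a higher log2 fold change than miR-221-3p and 25 a lower one than miR-146b-5p.

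**Figure D2:**
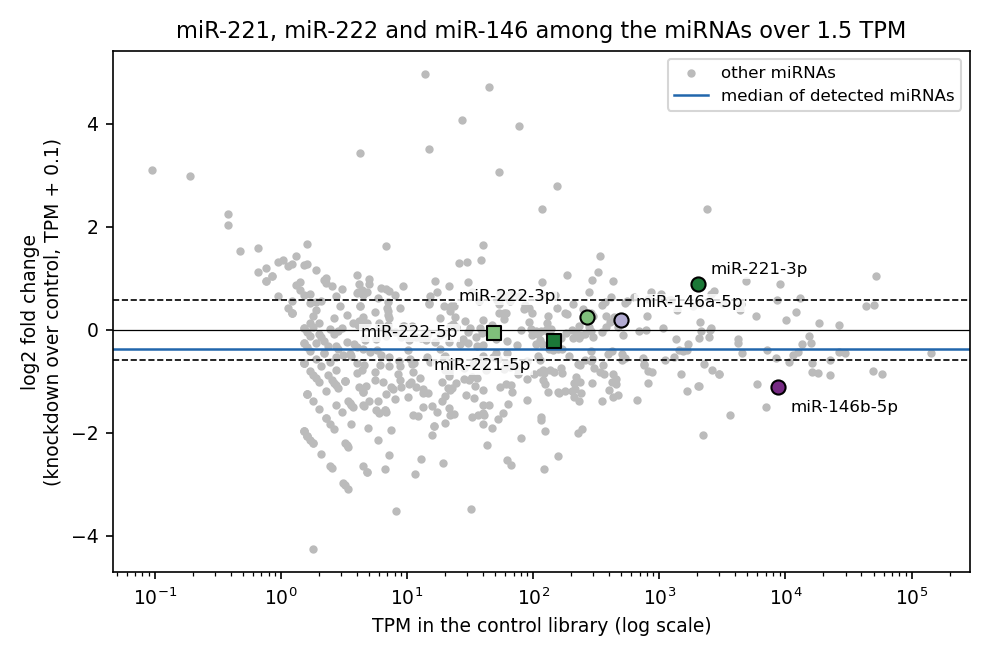
Log2 fold change of TPM + 0.1 (knockdown over control) against the control TPM (log axis) for the miRNAs over 1.5 TPM in either library with at least 1 control read. Coloured circles and squares are miR-221, miR-222 and miR-146 forms, dashed lines mark 1.5-fold either way and the blue line the median of -0.37. MiR-221-3p lies at 0.88 and miR-146b-5p at -1.11, and the other 4 forms lie within the dashed lines. Without scaling all 6 would lie below 0.

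Which direction a form takes in TPM depends on the total by which each library is divided, whereas the ratio of 2 forms within 1 library does not. In control SPCs there were 7.56 reads of miR-221-3p for each read of miR-222-3p (95% interval 7.27 to 7.86). In knockdown SPCs there were 11.8 (11.1 to 12.6). The ratio was 1.56-fold higher in the knockdown library (exact interval 1.45 to 1.69), so these neighbours with 1 seed did not change in step. For miR-146b-5p to miR-146a-5p the ratio was 17.3 (16.8 to 17.8) in the control and 7.05 (6.71 to 7.41) in the knockdown. It was 2.45-fold lower (2.32 to 2.60) in the knockdown library. The ratio of the passenger arms, miR-221-5p to miR-222-5p, was 3.02 (2.73 to 3.34) in the control and 2.73 (2.26 to 3.32) in the knockdown, and the interval of the odds ratio, 0.728 to 1.13, included no change.

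To see how usual such shifts are, the same ratios were taken for pairs of miRNAs, a comparison added after seeing the data. Each miRNA had at least 1000 control reads, and those of miR-221, miR-222 and miR-146 were included. Forms such as let-7c-5p and miR-16-5p, listed under multiple hairpins, were left out. However, let-7a-5p, miR-465b-5p and miR-465c-3p, also listed under multiple hairpins, were kept in the pairs that share a seed. Pairs of neighbouring hairpins took a single arm of each, such as miR-92a-1-5p and miR-24-2-5p. Among 24 pairs from hairpins at most 1000 bp apart, the ratio changed by a median of 0.37 on the log2 scale in either direction. Many of them reuse the same miRNAs, such as miR-17-5p, miR-19a-3p and miR-25-3p, so they are not independent. The miR-221-3p to miR-222-3p ratio changed by 0.64, and 6 of the 24 pairs changed more. Among 64 pairs that share a seed, the median was 0.43. Many of these pairs reuse the same miRNAs, above all let-7 and miR-98 forms and those with the miR-15 seed, so they are not independent. The ratio of miR-146b-5p to miR-146a-5p changed by 1.30, and 5 of the 64 pairs changed more. For miR-221-3p and miR-222-3p, which also share a seed, 20 of the 64 pairs changed more.

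Summed over the forms with 1 seed, the miR-221 and miR-222 seed had 2306 TPM in the control and 4076 TPM in the knockdown. This was 1.77-fold higher, with a log2 fold change of 0.82 (0.79 to 0.85) that turned to -0.90 without scaling. The miR-146 seed had 9169 TPM in the control and 4600 TPM in the knockdown, 1.99-fold lower, with a log2 fold change of -0.995 (-1.02 to -0.97). Within a library, reads with the miR-146 seed outnumbered those with the miR-221 and miR-222 seed by 3.98 to 1 (3.92 to 4.03) in control SPCs. In knockdown SPCs the ratio was 1.13 to 1 (1.10 to 1.16), which is 3.52-fold lower (3.43 to 3.62). The miR-146 seed thus remained the more frequent one by reads, with a smaller lead, and no scaling changes this ratio.

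The 2 arms of 1 hairpin come from the same precursor, and their ratio is likewise free of the library total. For miR-221, the 3p arm held 93.2% of the reads of both arms in control SPCs (Wilson interval 92.9 to 93.6%) and 96.7% in knockdown SPCs (96.4 to 97.0%). That is 13.8 reads of the 3p arm per read of the 5p arm in the control and 29.5 in the knockdown, an odds ratio of 2.14 (1.91 to 2.40, adjusted p = 3.9e-44, two-sided Fisher's exact test). For miR-222, the 3p arm held 84.7% (83.4 to 85.8%) and 87.2% (85.2 to 89.0%). The odds ratio was 1.24 (1.01 to 1.51), and its adjusted p-value of 0.14 by the same exact test missed the threshold. The 5p arm made up nearly all reads of miR-146a (99.98% in the control, all 1825 reads in the knockdown) and of miR-146b (99.99% in both libraries). The arm share of miR-221 was called among 272 hairpins tested, of which 19.5% were called. Over 273 hairpins with at least 20 reads the median log2 odds ratio was -0.03, and 80 of them had a larger shift than that of miR-221 (1.09), 11 of which passed the test.

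**Figure D3:**
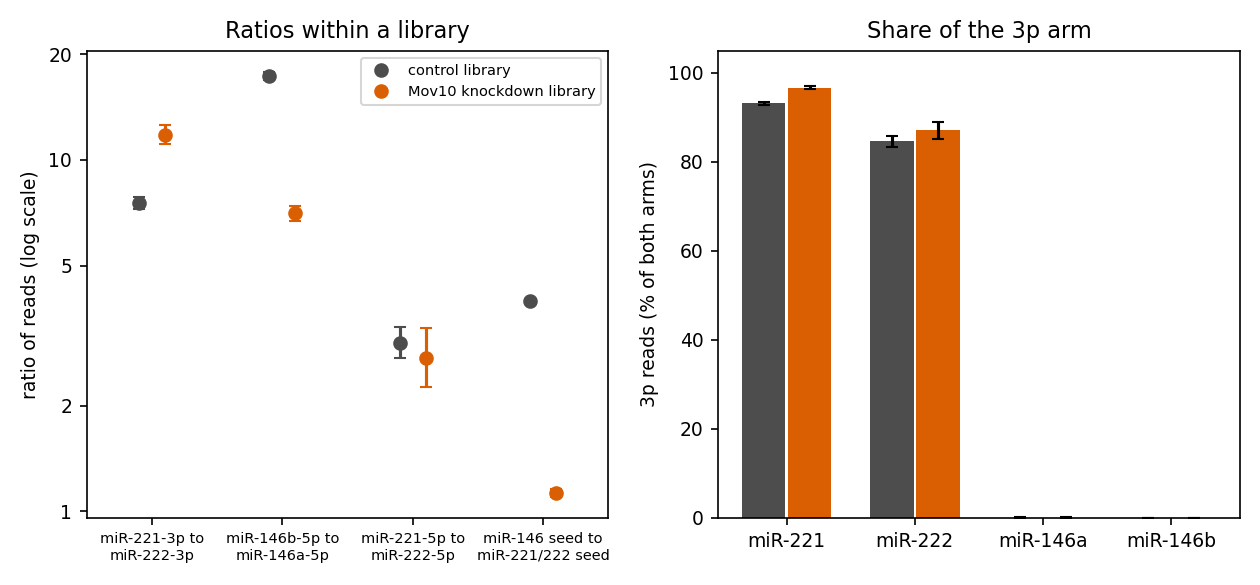
Left, read ratios within each library on a log axis, with 95% intervals for counting error. Right, reads of the 3p arm as a percentage of both arms, with 95% Wilson intervals. The miR-146b-5p to miR-146a-5p ratio is lower in the knockdown (17.3 against 7.05), the miR-221-3p to miR-222-3p ratio is higher (7.56 against 11.8), and the 3p share of miR-221 is 93.2% against 96.7%.

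For each of the 4 abundant forms, the 3 other miRNAs with the closest pair of levels were found by distance in log2(TPM + 0.1) over the 2 libraries. MiR-221-3p was nearest to let-7c-5p (distance 0.05), with 21029 control and 11665 knockdown reads and a log2 fold change of 0.87. Next came miR-199b-3p at 0.34 and miR-29a-3p at 0.35. MiR-146b-5p had no neighbour as close. Its nearest were miR-151-3p at a distance of 0.51, with a log2 fold change of -0.55, and miR-465b-5p at 0.52, with -0.39, followed by miR-878-5p at 0.73, with -1.05. MiR-146a-5p lay nearest to miR-106b-3p, miR-872-5p and miR-15b-5p, all at 0.25. MiR-222-3p lay nearest to let-7d-3p (0.12), miR-24-3p (0.15) and miR-872-3p (0.19). With 2 libraries this likeness describes 2 levels only.

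Other miRNAs described in the self-renewal or differentiation of spermatogonia were taken as a list of 20, of which 18 were listed and 17 exceeded 1.5 TPM. Of these, 8 were raised over 1.5-fold in TPM and 1 was reduced, and the exact binomial test called 13 higher and 2 lower, beside the shares over all miRNAs given above. Many members of the list are let-7 forms (let-7a to let-7g and let-7i), so its members are not independent. All these let-7 forms were called higher. The raised miRNAs were let-7a, let-7b, let-7c, let-7g and let-7i, beside miR-21a-5p, miR-322-5p and miR-34c-5p. The list median was 0.58 on the log2 scale, against -0.37 over all 607 miRNAs, and turned to -1.14 without scaling. The abundant miR-21a-5p, which promotes survival of germline stem cells, had 51967 TPM in the control and 107056 TPM in the knockdown, and miR-34c-5p, a germ cell miRNA of later spermatogenesis, had 9034 and 16687 TPM. Let-7i-5p, of the let-7 family that accompanies differentiation, had 4835 TPM in the control and 9292 TPM in the knockdown. Without scaling, all 17 were lower. MiR-20a-5p of the miR-17-92 cluster was lower in TPM (285 and 214 TPM), as was its paralog miR-106a-5p (3.61 and 0.939 TPM, 3 reads in the knockdown). By RT-qPCR set against U6 RNA, the study reported significantly lower mature miR21a, miR20a and miR106a in knockdown SPCs. For miR-21a-5p the TPM thus has the opposite direction to that assay. Its unscaled reads were lower, but the knockdown library held fewer reads in all. Without scaling, 561 of the 581 detected miRNAs were reduced over 1.5-fold, so the unscaled direction cannot be set against the assay. MiR-221-3p at 0.88 lay in the upper part of the range of this list, -1.84 to 1.04, and miR-146b-5p at -1.11 below all of its detected miRNAs but miR-106a-5p.

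The SPCs grew on STO fibroblasts, and miR-221, miR-222 and miR-146b are also made in fibroblasts. All 8 fibroblast markers exceeded 1.5 TPM, with miR-143-3p at 18362 TPM in the control and 20113 TPM in the knockdown and miR-199a-3p at 4430 and 6290 TPM. Lower in TPM were miR-214-3p (423 and 316 TPM) and miR-145a-5p (114 and 99.6 TPM). The list holds both arms of miR-199a, miR-199b and miR-214, so its members are not independent. The summed level of the 8 was 27648 TPM in the control and 32290 TPM in the knockdown, a log2 ratio of 0.22. Of the 8, 1 was raised over 1.5-fold and 0 were reduced, against 16.0% and 41.7% of all 607 miRNAs. By the exact binomial test, which calls small shifts at high read counts, 6 of the 8 were higher and 1 lower. Over all 1096 miRNAs the shares were 10.7% and 21.4%. Those shares include miRNAs at or below 1.5 TPM, whereas the list does not. Their median was 0.32, and -1.40 without scaling. The miRNAs of pluripotent and germ cells, mainly of the miR-290 to miR-295 cluster, were detected in 7 of 9 cases, among them miR-295-3p at 511 TPM in the control and 368 TPM in the knockdown and miR-294-3p at 132 and 57.6 TPM. MiR-302b-3p and miR-302d-3p had at most 2 reads. Of the 7, 5 were reduced over 1.5-fold and none was raised, against 41.7% and 16.0% of all 607 miRNAs. The exact binomial test called 6 lower, against 21.4% of all 1096 miRNAs, those at or below 1.5 TPM included. Their median was -0.82, and their summed level including the undetected ones was 948 TPM in the control and 629 TPM in the knockdown. The part of feeder cells or of a changed cell mixture in the levels of miR-221, miR-222 and miR-146 was not tested.

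**Figure D4:**
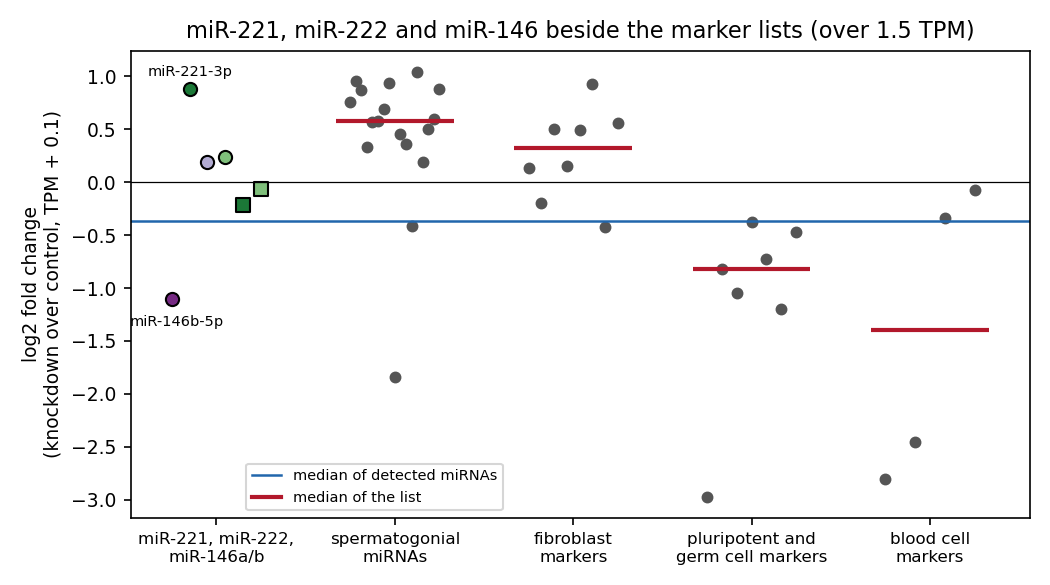
Log2 fold change of TPM + 0.1 (knockdown over control) of the miR-221, miR-222 and miR-146 forms over 1.5 TPM beside 4 lists of miRNAs, 1 point per miRNA. Red lines are list medians (0.58 for spermatogonial miRNAs, 0.32 for fibroblast, -0.82 for pluripotent and germ cell and -1.40 for blood cell markers) and the blue line is the median of all 607 miRNAs, -0.37. Without scaling all 4 list medians lie below 0.

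Among the detected forms of miR-221, miR-222 and miR-146, the choice between scalings changed the sign only for miR-221-5p and miR-222-5p, whose fold changes were small. The fold changes of miR-221-3p, miR-222-3p and miR-146a-5p changed sign only when reads were left unscaled. Dividing by the summed miRNA reads, by trimmed mean of M-values (TMM) factors or by the median ratio moved the log2 fold change of miR-221-3p to between 0.95 and 1.14 and that of miR-146b-5p to between -1.04 and -0.85. The median of all detected miRNAs moved from -0.37 to -0.30, -0.11 and -0.12 under these scalings, and to -2.07 when the unscaled reads were compared. The split of all detected miRNAs into reduced and raised over 1.5-fold was 253 to 97 with the deposited TPM, 193 to 147 with the median ratio, 203 to 149 with TMM and 561 to 10 without scaling. At the same thresholds the study reported far more miRNAs reduced than raised. Of these splits the one without scaling was closest, but it mostly reflects the smaller total of the knockdown library (log2 ratio -1.72). Why the deposited TPM give another split was not tested. MiR-146b-5p was lower under every scaling tried, whereas miR-221-3p, miR-222-3p and miR-146a-5p were higher under each scaling and lower without one.

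**Figure D5:**
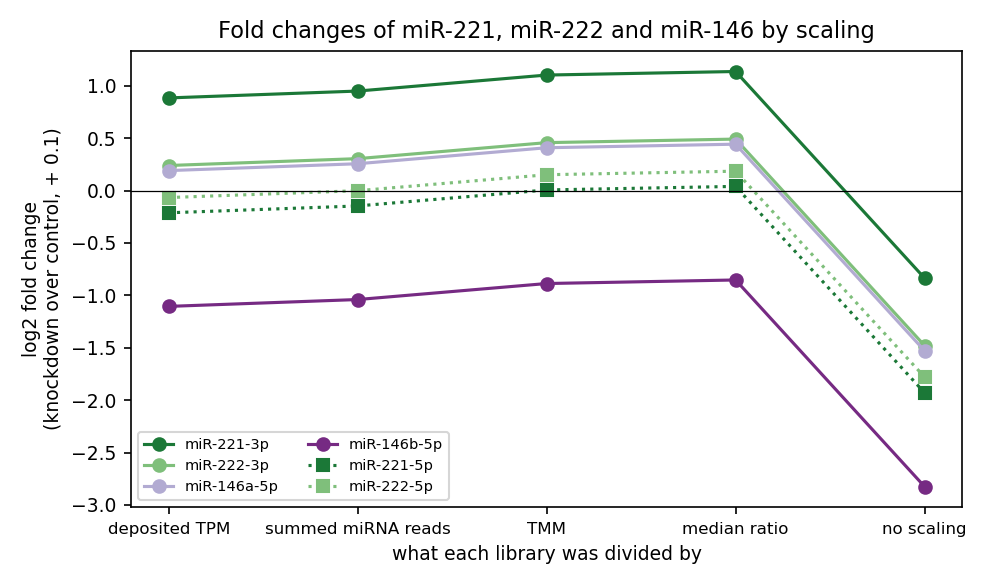
Log2 fold change (knockdown over control) of the 6 detected forms when each library was divided by the total behind TPM, the summed miRNA reads, TMM or median ratio factors, or not scaled. The miR-146b-5p line stays below 0 (-0.85 to -2.82), and the miR-221-3p line runs from 0.88 to 1.14 and falls to -0.84 without scaling.

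Sites for the seeds are shown for Kit and Med1, the described targets in spermatogonia, so that the seed and its match can be read side by side. ATGTAGC is the reverse complement of the miR-221 and miR-222 seed. The 3′ UTR of Kit (transcript Kit-201, 2180 bp) holds these letters 2 times on its sense strand. Each is printed in capitals within its surrounding bases, in GRCm38 on the plus strand.
Kit chr5:75654981-75655002: atgggagatatATGTAGCaaga
Kit chr5:75656512-75656533: taaatattgaaATGTAGCaata
The same letters occur in 14.5% of 3064 annotated 3′ UTRs within 20% of this length. The 3′ UTR of Med1 (Med1-203, 3089 bp) holds AGTTCTC, the reverse complement of the miR-146 seed, 3 times, here on the minus strand.
Med1 chr11:98154295-98154316: atagaattaatAGTTCTCctac
Med1 chr11:98153911-98153932: agtgcaacagaAGTTCTCagta
Med1 chr11:98153617-98153638: ctttctttcctAGTTCTCtttt
These letters occur in 22.1% of 2532 3′ UTRs of similar length. Irak1 (Irak1-206) holds AGTTCTC 2 times, as do 11.3% of UTRs of similar length at least once, and Traf6 (Traf6-201) 4 times, against 31.1%. A match of letters is a description and not a measured site. The levels of Kit, Med1, Irak1 and Traf6 mRNA were not analysed here.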

How the data were processed

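Small RNA libraries (TruSeq, Illumina) of control and Mov10 knockdown SPCs, 1 per group, were analysed. Per the study's methods, the authors filtered rRNA reads, trimmed adaptors with Fastx and mapped reads without mismatch to miRBase with CLC Genomics Workbench. The deposited values are read counts and TPM per mature miRNA. TPM was made by the authors as reads per 1000000 of a library total (10518277 in the control, 3194363 in the knockdown), whose content is not given in the sources used here. Of the 1096 miRNAs, 1058 and 833 had reads.

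Log2 fold changes were computed from TPM + 0.1, which understates the change of low miRNAs. Ratios printed as folds and all intervals are of reads without this addition. For the reads of a miRNA, the exact binomial test was conditional on both library totals and two-sided, and arm shares (at least 20 reads per hairpin) were set against each other by Fisher's exact test, each with Benjamini-Hochberg adjustment over all miRNAs or hairpins and a threshold of 0.05. EdgeR's quasi-likelihood test has no residual degrees of freedom here, and edgeR 4.0.16 (R 4.3.3) served for TMM only. Python 3.11.15, scipy 1.17.1 and pandas 2.3.3 were used, and the tests were tested on simulated data. The 3-read floor and all intervals (95%) cover at most counting error, with reads taken as independent.

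Every listed arm of the 4 hairpins was named, along with the nearest miRNAs by level and the spermatogonial, fibroblast, pluripotent and germ cell, blood, endothelial and muscle lists. These miRNAs and lists were chosen with earlier results of these data known. Other scalings, pseudocounts, minimums, fold thresholds and hairpin filters were tried. List medians under other scalings and the pair comparison were added after seeing the data. Sequences are from RefSeq (GRCm38.p6, 908 of 1096 miRNAs matched by name, 7 of the 8 forms here), and UTRs and introns from GENCODE.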

Additional observations from a re-analysis of the deposited data

How the results depend on the processing

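No paired analysis was possible because there is a single library in each group. Comparing unscaled reads, which shifts every log2 ratio by the ratio of the library totals (-1.72), gave -0.84 for miR-221-3p, -1.48 for miR-222-3p, -1.53 for miR-146a-5p, -0.90 for the miR-221 and miR-222 seed and -2.71 for the miR-146 seed, with 6 forms reduced and 0 raised over 1.5-fold. Dividing by summed miRNA reads, the median ratio and TMM factors gave 0.89, 1.07 and 1.04 for the miR-221 and miR-222 seed and -0.93, -0.74 and -0.78 for the miR-146 seed. With the median ratio and TMM, miR-221-5p turned to 0.039 and 0.0055, and miR-222-5p to 0.18 and 0.15. MiR-221-5p missed the threshold with summed miRNA reads (adjusted p = 0.19, exact binomial test). With no minimum TPM, 3 forms were reduced, the additional ones being miR-146b-3p and miR-146a-3p with at most 11 reads. With a 2-fold threshold 0 were raised, since miR-221-3p was 1.84-fold higher. Pseudocounts of 0.01 and 1 TPM, a minimum of 10 TPM and the hairpin filters changed no direction or call. The spread between cultures cannot be estimated from these libraries, and 3 reads were worth 0.939 TPM in the knockdown, which leaves the 3p arms of miR-146a and miR-146b below what its depth can compare.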

Other observations

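Of the 6 blood cell markers, 4 exceeded 1.5 TPM. MiR-142a-5p, a miRNA of blood cells, had 158 TPM in control and 28.8 TPM in knockdown SPCs (1663 and 92 reads). MiR-155-5p, which like miR-146a is induced in activated immune cells, had 100.2 and 95.5 TPM, a log2 fold change of -0.07, beside 0.19 for miR-146a-5p. The summed level of the 6 was 276 TPM in the control and 130.2 TPM in the knockdown. Most of this difference lay in the arms of 1 hairpin, miR-142a, whose 3p arm had 11.5 and 1.57 TPM. MiR-150-5p had 3.99 and 3.13 TPM and was not called. MiR-126a-5p, a miRNA of endothelial cells, had 503 TPM in the control and 336 TPM in the knockdown. Both endothelial forms were called lower by the exact binomial test, against 21.4% of all 1096 miRNAs, those at or below 1.5 TPM included. Without scaling the medians of both lists were lower still, at -3.06 and -2.31. The muscle miRNAs miR-133a-3p and miR-206-3p had at most 21 reads in a library, and neither passed the test. The cells had been selected for Thy1 and kept in culture with STO feeders over a long time. How far blood or endothelial cells contributed to the levels of miR-146a and miR-146b was not tested.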
